A study of Mus musculus with 4 samples.

Results

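The genes described here encode the enzymes that write, keep and remove DNA methylation: Dnmt1, Uhrf1, Dnmt3a, Dnmt3b, Dnmt3l, Tet1, Tet2, Tet3 and Tdg. They were chosen by name, and each of the 9 symbols matched 1 of the 47633 genes in the table of FPKM (fragments per kilobase of gene model, scaled to sequencing depth). The cells were mouse embryonic stem (ES) cells of strain 129S2/SvPas and cells derived from them. ES cells were grown with serum and leukaemia inhibitory factor (LIF), a cytokine that holds them undifferentiated, on mitomycin C-treated fibroblasts from C57/BL6 embryos (2 libraries). The other groups were cells kept for 2 days without LIF (1 library) and cells labelled embryoid body after 5 days without LIF (1 library). The labels name no genotype and no agent besides LIF that differed between the groups, and all libraries were made from total RNA. Whether feeder fibroblasts were present after LIF was withdrawn, or were removed before RNA was taken, is not given in the sources used here.

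In mammalian DNA most methylation sits on the cytosine of CpG dinucleotides. DNMT1 copies the mark to the new strand at replication, guided by UHRF1, which binds CpGs methylated on the old strand only. DNMT3A and DNMT3B place new marks and DNMT3L, which has no catalytic activity of its own, stimulates them. The TET enzymes oxidise methylated cytosine step by step, and TDG excises the last oxidised forms so that repair can restore plain cytosine. ES cells are known for strong expression of Dnmt3b, Dnmt3l and Tet1, and Dnmt3l is known to be silenced by promoter methylation as cells differentiate.

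The sequence before the start sites is shown first because CpG dinucleotides are the substrate of these same enzymes, and the members differ widely in how many they carry. RefSeq start sites on GRCm38.p6 (mm10) matched all 9 genes, with 16 starts in all. In the 250 bases before each start the members held from 2 to 51 CpGs, with a median of 16 against a median of 6 over 32851 mouse starts, and 12 of the 16 lay above that median. Shown here are Tet2, which had the most CpGs, Dnmt3l, whose starts were all CpG-poor, and Tdg and Dnmt3b, which lie between them. Tet2 and Tdg had the largest differences after 2 days without LIF, and Dnmt3b and Dnmt3l the lowest ratios to the ES mean in the other derived library. The windows below read 5′ to 3′ on the coding strand, with every CpG in capitals. They are chr3:133544391-133544640 (minus strand) for Tet2, chr10:82629588-82629827 (plus strand, ending before the first exon) for Tdg, and chr2:153649199-153649448 (plus strand, inside the antisense gene Dnmt3bos) for Dnmt3b. For Dnmt3l they are chr10:78049592-78049841 and chr10:78055085-78055334 (plus strand), before the later 2 of its 3 starts, both in introns of the gene.
Tet2: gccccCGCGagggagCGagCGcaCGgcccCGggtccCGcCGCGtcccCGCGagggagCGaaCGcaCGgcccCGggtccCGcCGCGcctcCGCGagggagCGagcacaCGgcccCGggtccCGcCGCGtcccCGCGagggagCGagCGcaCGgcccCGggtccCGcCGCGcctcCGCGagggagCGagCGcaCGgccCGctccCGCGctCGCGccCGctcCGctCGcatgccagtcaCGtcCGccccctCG
Tdg: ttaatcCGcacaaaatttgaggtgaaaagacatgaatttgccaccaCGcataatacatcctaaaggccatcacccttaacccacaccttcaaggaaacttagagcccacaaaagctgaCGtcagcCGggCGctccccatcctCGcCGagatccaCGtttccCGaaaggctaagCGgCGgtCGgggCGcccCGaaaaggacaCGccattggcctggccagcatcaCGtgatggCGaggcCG
Dnmt3b: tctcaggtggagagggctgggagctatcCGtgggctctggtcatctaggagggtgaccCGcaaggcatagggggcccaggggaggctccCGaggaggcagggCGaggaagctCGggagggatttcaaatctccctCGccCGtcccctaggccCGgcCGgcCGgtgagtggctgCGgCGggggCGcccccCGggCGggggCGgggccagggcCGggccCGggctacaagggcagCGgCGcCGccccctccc
Dnmt3l, start 2: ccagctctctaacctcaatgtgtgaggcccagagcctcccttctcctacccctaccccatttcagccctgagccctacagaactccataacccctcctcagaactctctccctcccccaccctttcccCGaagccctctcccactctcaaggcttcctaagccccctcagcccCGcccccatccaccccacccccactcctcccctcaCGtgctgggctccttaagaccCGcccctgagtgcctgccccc
Dnmt3l, start 3: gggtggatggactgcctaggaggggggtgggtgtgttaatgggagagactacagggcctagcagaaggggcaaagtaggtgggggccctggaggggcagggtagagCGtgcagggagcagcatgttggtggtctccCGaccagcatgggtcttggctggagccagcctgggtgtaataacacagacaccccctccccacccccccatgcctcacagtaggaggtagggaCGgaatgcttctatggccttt

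The Tet2 window held 51 CpGs, more than 99.9% of all mouse starts, and held repeats: 58 different runs of 20 bases occurred in it more than once, and the most frequent run occurred 4 times. No run of 20 bases was repeated in the other windows shown. The 3 Dnmt3l starts had 5, 4 and 3 CpGs, fewer than the median of all starts. Dnmt3b had 21, the Tdg window 19 over its full 250 bases (18 in the 240 printed), Tet3 17 and Tet1 15. Dnmt3a had 38 and 40 before its upstream starts and 15 before the internal start on chromosome 12 at 3891744. Dnmt1 had 2, 7 and 26, and Uhrf1 had 10 and 30. The GC box GGGCGG, on either strand, was found in 11 of the 16 windows (68.8%, against 32.7% of all windows), at 1 or more starts of every gene but Tdg. This box itself holds a CpG, and windows of like CpG content were not compared. The windows before the upstream Dnmt3a starts overlap, so the 16 are not all separate. The CCAAT box, on either strand, was in 6 (37.5% against 33.9%), at starts of Dnmt1, Uhrf1, Tet3 and Tdg. The palindrome TTCNNNGAA, the core recognised by STAT factors, was in 2 (12.5% against 7.02%), 1 each of Tdg and Dnmt3l, and both windows are printed above. These counts describe letters and not binding.

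**Figure D1:**
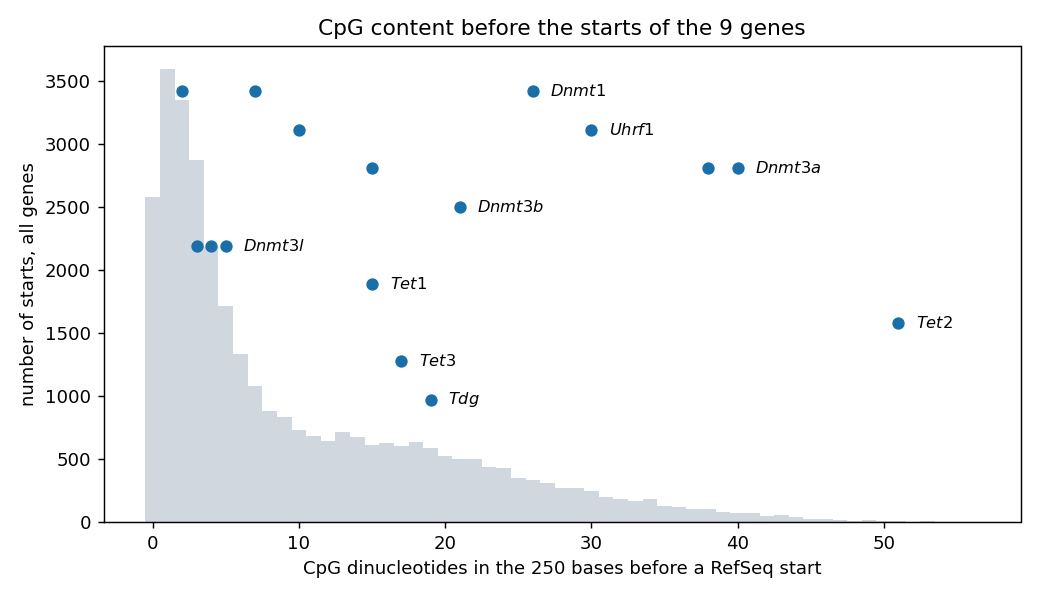
Histogram: CpG dinucleotides in the 250 bases before each of 32851 RefSeq starts (x axis, count, drawn to just under 60) against the number of starts (y axis). Blue points are the 16 starts of the 9 genes, 1 row per gene with the height chosen for legibility only: Tet2 sits far to the right at 51, the Dnmt3l starts at 3 to 5.

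The libraries were estimated at 18.1 to 31.5 M fragments, where 3 fragments on a 1 kb gene model equal 0.0954 to 0.166 FPKM. Those limits cover counting error only. Every one of the 9 genes lay above them in every library, from 3.12 FPKM upward, and all 9 passed the filter of 1 FPKM in at least 1 library. The highest gene took 2.50% to 4.55% of the FPKM sum in 3 libraries and 37.7% after 2 days without LIF. Median-of-ratios factors between the libraries ran from 0.982 to 1.03. The ES libraries are not stated to be separate cultures, so p-values here rest on how far that 1 pair differs, which can be technical variation alone, and neither derived library has a replicate. The differences were tested with limma on log2(FPKM + 1) over 15676 genes, with 1 residual degree of freedom from the ES pair and Benjamini-Hochberg adjustment, and a gene passed at adjusted p under 0.05. In bulk RNA, fewer cells of a type and less RNA per cell cannot be told apart.

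ES cell markers were present in each library. The summed FPKM of 8 (Pou5f1, Nanog, Sox2, Zfp42, Esrrb, Dppa5a, Tdgf1 and Utf1) was 2154 and 2158 in ES cells, 2343 after 2 days without LIF and 2698 in the library labelled embryoid body. Dppa5a carried the higher sum: the other 7 markers summed to 1593 and 1580 FPKM in ES cells, 1538 without LIF and 1562 in the later library, a subset chosen after its values were seen. Those 7 moved both ways in the later library: Nanog, Sox2, Zfp42 and Esrrb were above both ES libraries, Pou5f1, Tdgf1 and Utf1 below both. By limma 0 of the 8 passed, with 2 (without LIF) and 5 (later library) at unadjusted p under 0.05 (37.2% and 27.7% of all tested genes). Their median log2 changes were -0.02 and 0.22, against 0.041 and -0.0064 over all tested genes. The later library is called by its label throughout. The summed FPKM of 12 fibroblast feeder markers was 29.0 and 28.6 in ES cells, 74.5 after 2 days without LIF and 47.5 in the library labelled embryoid body, and none was at 0 in all libraries. The part of feeder RNA in the values that follow was not tested. Among 8 primitive endoderm, 5 mesoderm and 4 neuroectoderm markers, 5, 2 and 2 stayed under 1 FPKM in all libraries.

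In ES cells Tet1, Uhrf1 and Dnmt3b were the most abundant members and Tet3 the least. Per length of transcript the order of the ES means was Tet1 at 111 ± 6.13 FPKM (SD, n = 2 here and for all ES means), Uhrf1 at 105 ± 1.83, Dnmt3b at 96.8 ± 4.14, Tdg at 72.9 ± 5.26, Dnmt1 at 62.0 ± 2.82, Dnmt3l at 50.2 ± 1.29, Tet2 at 46.1 ± 0.150, Dnmt3a at 14.4 ± 0.400 and Tet3 at 4.35 ± 0.0312 FPKM. Both ES libraries gave this same order. The closest neighbours were Tet1 and Uhrf1, since the lower Tet1 value (106.9) and the higher Uhrf1 value (106.6) nearly met. Among the 15676 tested genes the members ranged from the 40.0th percentile (Tet3) to the 94.99th (Tet1). In the derived libraries the order changed mainly through Tet2, which moved from rank 7 among the 9 members to rank 4 after 2 days without LIF and rank 3 in the library labelled embryoid body, and through Tdg, which moved from rank 4 to ranks 7 and 5.

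**Figure D2:**
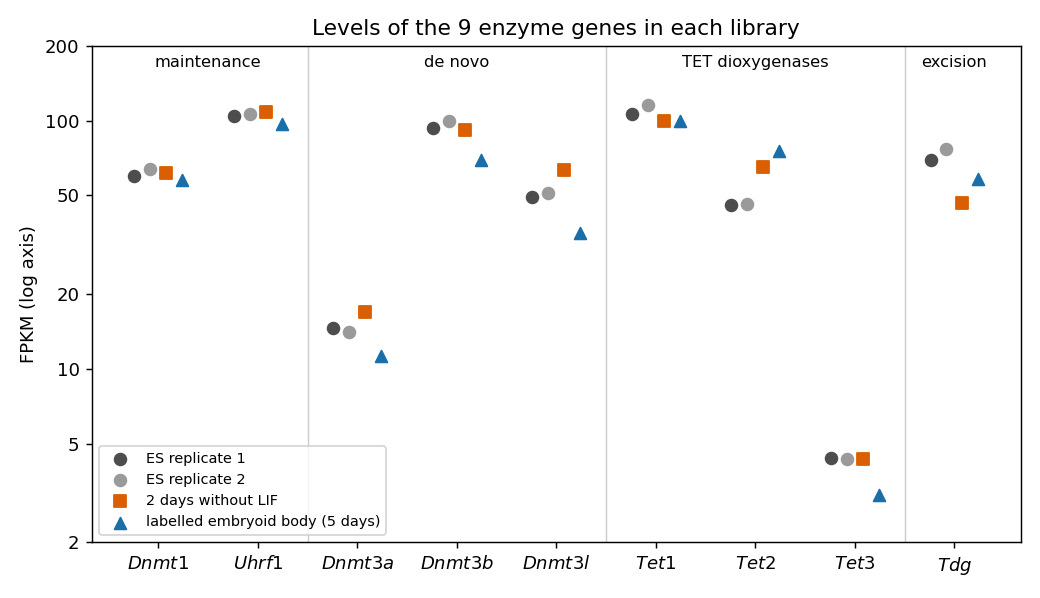
FPKM (y axis, log scale) of the 9 genes (x axis, grouped by role) in each of the 4 libraries; each point is 1 library. The ES points of a gene lie close together, Tet2 is higher in both derived libraries, and the 3 de novo genes are lowest in the library labelled embryoid body.

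The first comparison asked how the 9 genes changed after 2 days without LIF. Tet2 rose and no other member passed the test. This 1 of 9 (11.1%) is near the 10% of all tested genes that passed in this comparison (8.87% higher, 1.15% lower), so the count is not a result about these genes as a group. The balance of directions depended on the genes fitted together. Among 12359 protein-coding genes, the class of all 9 members, 17.1% passed (1446 higher, 668 lower), and with them 2 members, Tet2 and Tdg. Among 6808 genes of at least 1000 nt clear of any gene on the opposite strand 22% passed (865 higher, 632 lower), with 0 of the 3 members in that set. The members' median log2 change was -0.0062, against 0.041 over all tested genes, with 4 members above their ES mean and 5 below. At unadjusted p under 0.05 there were 3 members (Tet2, Dnmt3l and Tdg), against 37.2% of all tested genes. Tet2 and Dnmt3l were higher (24.1% of all tested genes) and Tdg lower (13.1%). Outside the range of the ES libraries lay 8 members, 4 above and 4 below, against 85% of all tested genes (48.4% above, 36.6% below). A distance of 1.5-fold or more from each ES library was reached by 0 of 9, against 24.3% of all tested genes (17.8% higher).

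ES cells were next compared with the library labelled embryoid body. Tet2 was higher and the other 8 members were lower than both ES libraries, but limma passed 0 of 9, with 5 at unadjusted p under 0.05 (27.7% of all tested genes), of which 1 was higher (12.5%) and 4 lower (15.2%). Over all genes 0.396% passed in this comparison, all of them higher. That direction did not hold in other gene sets: 39 higher and 30 lower passed among protein-coding genes (0.558%), 444 higher and 529 lower among genes clear of the opposite strand (14.3%), and 1248 higher and 86 lower with no filter on low FPKM. All 9 members lay outside the ES range, against 80.5% of all tested genes, 1 above (37.6%) and 8 below (42.9%). The members' median log2 change was -0.32, against -0.0064 over all tested genes. The comparisons share the 2 ES libraries, so their values are not independent of each other.

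**Figure D3:**
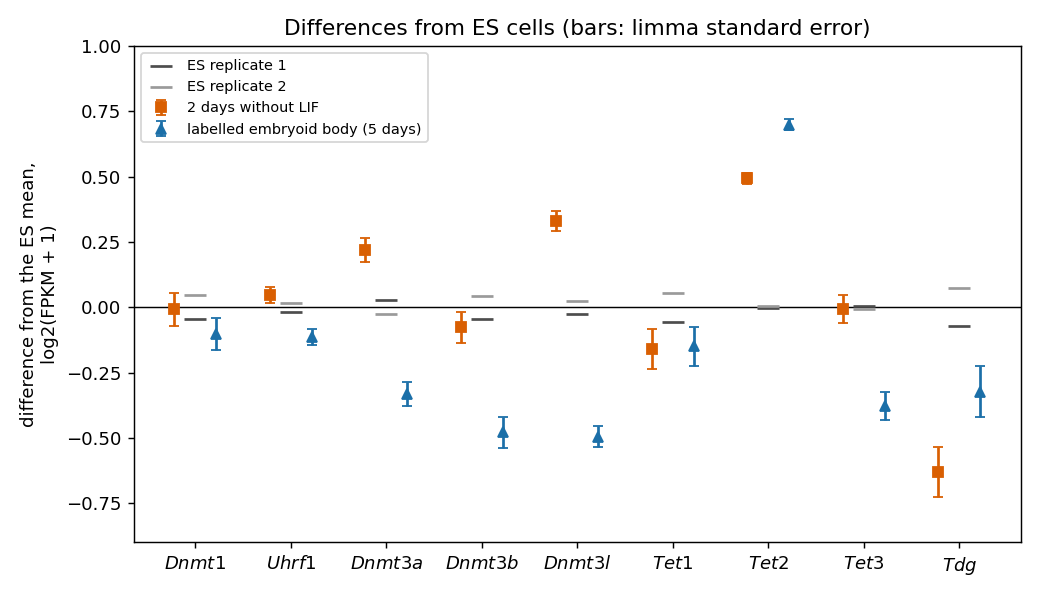
Difference of each library from the mean of the ES libraries (y axis, log2(FPKM + 1)) for the 9 genes (x axis). Dashes are the ES libraries, squares the library without LIF for 2 days and triangles the library labelled embryoid body. Bars are the limma standard error, which draws on the gene's ES pair and on the ES spread of all tested genes. Tet2 is the only gene above 0 in both derived libraries by more than its error.

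The maintenance genes were the steadiest of the set. Dnmt1 (ENSMUSG00000004099.15, chromosome 9, 20907209 to 20959888, minus strand) was at 60.1 and 64.0 FPKM in ES cells, 61.6 after 2 days without LIF and 57.7 in the library labelled embryoid body. Without LIF the gene lay between the ES libraries, and the log2 differences were -0.0083 (SE 0.06, limma adjusted p = 0.935) and -0.10 (adjusted p = 0.426). Uhrf1 (ENSMUSG00000001228.14, chromosome 17, 56303321 to 56323486, plus strand) was at 104 and 107 FPKM in ES cells, 109 without LIF and 97.3 in the library labelled embryoid body. Its highest and lowest libraries differed 1.12-fold, and those of Dnmt1 1.11-fold, the smallest ranges among the members. The ratio of Uhrf1 to Dnmt1 within a library was 1.73 and 1.66 in ES cells, 1.77 and 1.69 in the derived libraries. No annotated gene overlaps Dnmt1 or Uhrf1 on the opposite strand.

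Among the de novo genes, Dnmt3l (ENSMUSG00000000730.13, chromosome 10, 78041947 to 78063622, plus strand) had the widest spread of all members, 1.79-fold from its lowest to its highest library. It was at 49.3 and 51.1 FPKM in ES cells, 63.3 after 2 days without LIF and 35.3 in the library labelled embryoid body. Both derived libraries thus lay on opposite sides of the ES pair, with log2 changes of 0.33 (SE 0.04, limma adjusted p = 0.0896) and -0.50 (adjusted p = 0.139), neither past the threshold. Dnmt3l shares 67 nt of exon with Aire on the opposite strand, which was at 0.755 and 0.910 FPKM in ES cells, 4.57 without LIF and 1.33 in the library labelled embryoid body. Whether strand was counted is not given, and a contribution from Aire to Dnmt3l was not tested. The gene has 3 RefSeq starts and 1 FPKM value, so the transcripts from the CpG-poor windows printed above cannot be told apart.

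Dnmt3b (ENSMUSG00000027478.15, chromosome 2, 153649450 to 153687730, plus strand) was at 93.9 and 99.7 FPKM in ES cells, 91.7 without LIF and 69.1 in the library labelled embryoid body. That last value was 0.737 and 0.693 times those of the ES libraries, or -0.48 on the log2 scale (SE 0.06; limma, adjusted p = 0.145), whereas the library without LIF was within 0.08 of the ES mean on that scale. Dnmt3a (ENSMUSG00000020661.15, chromosome 12, 3806007 to 3914443, plus strand) was the least abundant de novo gene, at 14.7 and 14.1 FPKM in ES cells, 16.9 without LIF and 11.2 in the library labelled embryoid body. Like Dnmt3l it was above both ES libraries in the first and below both in the second, with log2 changes of 0.22 (adjusted p = 0.140) and -0.33 (adjusted p = 0.150). Such opposite sides were found for 3 of 9 members (Dnmt3a, Dnmt3l and Uhrf1) and for 27.4% of all tested genes. The antisense gene Dnmt3aos, which shares 133 nt of exon with Dnmt3a, was at 0.136 FPKM without LIF and listed at 0 elsewhere. Dnmt3bos was at 0.177 FPKM or less in every library.

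Ratios within a library do not depend on its scaling. Dnmt3b exceeded Dnmt3a 6.39-fold and 7.06-fold in the ES libraries, 5.42-fold without LIF and 6.15-fold in the library labelled embryoid body. Dnmt3l relative to the sum of Dnmt3a and Dnmt3b was 0.454 and 0.449 in ES cells, 0.583 without LIF and 0.440 in the library labelled embryoid body. Above both ES values it stood only in the library without LIF, while in the library labelled embryoid body all 3 genes were lower by like factors of 0.780 (Dnmt3a), 0.714 (Dnmt3b) and 0.704 (Dnmt3l) of their ES means. With 2 ES values and 1 derived value these ratios have no test. Dnmt3c, the mouse germline duplicate of Dnmt3b, was listed at 0 in 3 libraries and at 0.0175 FPKM in ES replicate 2, below the value of 3 fragments per kilobase.

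Tet2 (ENSMUSG00000040943.12, chromosome 3, 133463679 to 133545139, minus strand) was at 45.9 and 46.2 FPKM in ES cells, 65.2 after 2 days without LIF and 75.4 in the library labelled embryoid body. Both derived libraries were above both ES libraries. It rose without LIF by 0.49 on the log2 scale (SE 0.02, limma adjusted p = 0.0367, adjusted p from 0.0237 to 0.0619 over the alternatives). The call was lost with a filter of 5 FPKM (0.0619) and without the trend on expression (0.0512). In the library labelled embryoid body the log2 difference was 0.70 (adjusted p = 0.132), and Tet2 was the 1 member at least 1.5-fold from both ES libraries (1.64-fold and 1.63-fold), a size that 16.3% of all tested genes reached (9.26% higher). Its ES values were unusually close: of 2993 protein-coding genes within 2-fold of its ES level, 5.95% had a smaller ES gap. The small standard error draws on that pair and, as limma moderates it, on the ES spread of all tested genes. Tet2 shares 43 nt of exon with Gm42567 on the opposite strand, which was listed at 0 in all 4 libraries.

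Tet1 (ENSMUSG00000047146.15, chromosome 10, 62804570 to 62908996, minus strand) was at 107 and 116 FPKM in ES cells and at 99.4 and 100.1 in the derived libraries, in the same order as above. Both derived values were below both ES values, but the differences of -0.16 and -0.15 on the log2 scale (SE 0.08) did not pass (limma adjusted p = 0.297 and 0.363). Tet3 (ENSMUSG00000034832.15, chromosome 6, 83362373 to 83459084, minus strand) was at 4.38 and 4.33 FPKM in ES cells, 4.33 without LIF and 3.12 in the library labelled embryoid body, where the log2 difference was -0.38 (limma adjusted p = 0.151). B230319C09Rik, which overlaps Tet3 on the opposite strand but shares no exon with it, was at 0.429 FPKM without LIF and 0.0403 or less elsewhere. Within the family, Tet2 made up 29.2% and 27.8% of the summed Tet FPKM in ES cells, 38.6% without LIF and 42.2% in the library labelled embryoid body. Tet1 made up 68.0% and 69.6% in ES cells and 58.8% and 56.0% in the derived libraries, with no test. The sum itself was 157 and 166 FPKM in ES cells and 169 and 179 in the derived libraries.

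Set against the catalytic de novo enzymes, the Tet sum was 1.45 and 1.46 times the sum of Dnmt3a and Dnmt3b in ES cells, 1.56 times without LIF and 2.22 times in the library labelled embryoid body. The de novo sum was 109 and 114 FPKM in ES cells, 109 without LIF and 80.4 in the library labelled embryoid body. These are transcript levels, and DNA methylation was not measured.

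**Figure D4:**
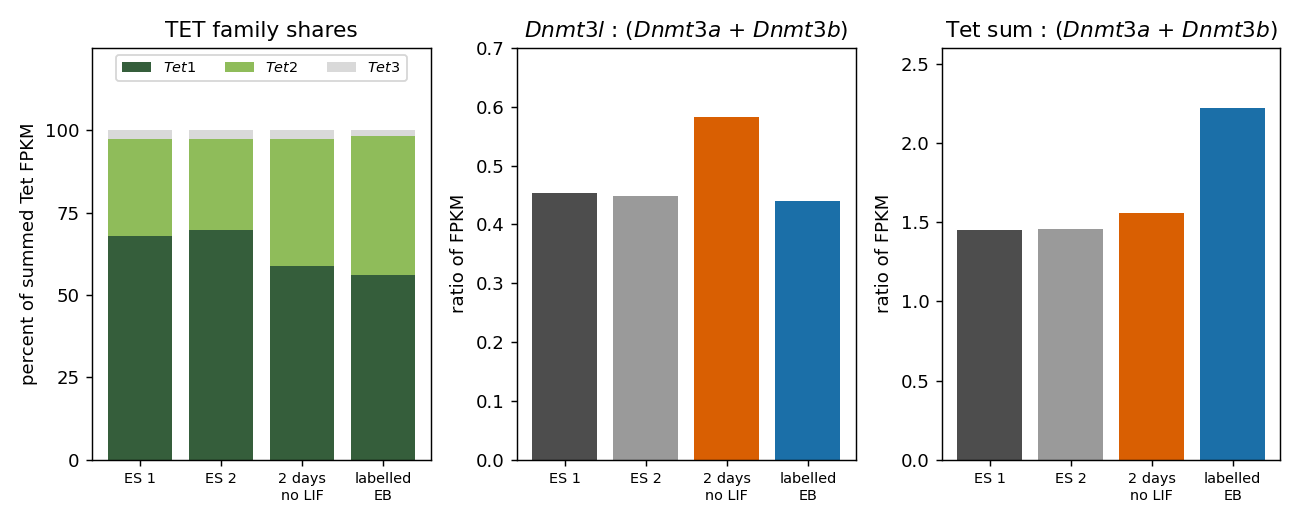
Within-library proportions in the 4 libraries (x axes). Left, share of Tet1, Tet2 and Tet3 in the summed Tet FPKM (percent); middle, Dnmt3l divided by Dnmt3a plus Dnmt3b; right, the Tet sum divided by Dnmt3a plus Dnmt3b. The Tet2 share is 38.6% and 42.2% in the derived libraries against 27.8% to 29.2% in ES cells, the middle ratio is highest without LIF and the right one in the library labelled embryoid body.

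Tdg (ENSMUSG00000034674.18, chromosome 10, 82629828 to 82650799, plus strand), the glycosylase that completes TET-driven demethylation, had the largest difference without LIF. It was at 69.2 and 76.6 FPKM in ES cells, 46.6 without LIF and 58.0 in the library labelled embryoid body, so that both derived libraries lay below both ES libraries. The log2 differences were -0.63 (SE 0.10, limma adjusted p = 0.106) and -0.32 (adjusted p = 0.236). The ES pair was farther apart than for 84.1% of 2112 protein-coding genes of like level, the reverse of Tet2. Among protein-coding genes alone the first difference passed (adjusted p = 0.0454). Tdg shares 367 nt of exon with Glt8d2 on the opposite strand, which was at 0.0567 and 0.0616 FPKM in ES cells, 2.05 without LIF and 0.249 in the library labelled embryoid body. Its processed copy Tdg-ps was at 0.0896 FPKM or less in every library.

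Between the derived libraries, 1 each and so without a test, 6 of 9 members were lower in the library labelled embryoid body than after 2 days without LIF. Dnmt3l (0.558 times) and Dnmt3a (0.664 times) were at least 1.5-fold apart, a size that 34.9% of all tested genes reached. After median-of-ratios rescaling, an alternative added after the data were seen, Dnmt3a was no longer 1.5-fold apart. Tet1 was level (1.01 times), while Tet2 (1.16 times) and Tdg (1.24 times) were higher.

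Dnmt3l, the member with the widest spread, was used to find genes of like pattern. Likeness was the distance between profiles of log2(FPKM + 1) over the 4 libraries, each centred on its own mean, among 8577 protein-coding genes with a mean of at least 5 FPKM. The nearest was Mme, which encodes the membrane peptidase neprilysin, at 9.57 and 9.98 FPKM in ES cells, 12.5 without LIF and 6.66 in the library labelled embryoid body (distance 0.0065). Haus1, Cep41, Mpv17l2 and Pomgnt1 followed at distances of 0.0409 to 0.0622. With 26 genes within 0.1 and only 4 libraries, such likeness is a description.

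Genes that work beside the members were followed as lists, described here by counts and medians. Abundance within a list is the mean FPKM over the 4 libraries. Among all tested genes 8.87% rose and 1.15% fell without LIF, 37.2% and 27.7% were at unadjusted p under 0.05 in the first and the second comparison, and the medians were 0.041 and -0.0064. Of 9 maintenance partners 2 fell without LIF (1.15% of all tested genes) and 0 rose, with 4 and 2 at unadjusted p under 0.05 (37.2% and 27.7%). Among 12359 protein-coding genes fitted alone 668 fell, a larger share than among all tested genes. Pclaf, a PCNA-binding protein, went from 46.9 and 46.5 FPKM to 31.3 (-0.56, limma adjusted p = 0.0350). Uhrf2, the paralogue of Uhrf1, went from 32.0 and 31.9 to 23.7 (-0.42, adjusted p = 0.0491). Among those that did not pass, Hells went the other way, from 256 and 260 to 334 FPKM (0.37, limma adjusted p = 0.0722). Cdca7 went down, from 101 and 98.1 to 75.5 FPKM (-0.39, adjusted p = 0.0707). The list median was -0.18 without LIF, against 0.041 over all tested genes, and -0.08 for the later library. Of 21 replication genes, which mark S phase, limma passed 0 in either comparison, with 4 and 2 at unadjusted p under 0.05 (37.2% and 27.7% of all tested genes) and medians of -0.10 and -0.06. The helicase genes Mcm7 (205 and 240 FPKM in ES cells, 213 and 211 in the derived libraries) and Mcm3 (188 and 204, then 180 and 199) were the most abundant.

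Of 16 base excision repair genes 0 passed by limma, with 6 and 2 at unadjusted p under 0.05, the first of them near the 37.2% of all tested genes and the second below their 27.7%, and medians of 0.01 and 0.02. Apex1, the nuclease that cuts the site TDG leaves, was at 189 and 191 FPKM in ES cells, 155 without LIF and 195 in the library labelled embryoid body. Parp1, a sensor of strand breaks, was at 109 and 106, then 122 and 109 FPKM. Of 12 methyl-CpG readers and their silencing partners 1 rose without LIF (8.87% of all tested genes): Zbtb4, a zinc finger reader, from 0.542 and 0.626 to 2.20 FPKM (1.02, adjusted p = 0.0482). The list medians were 0.16 and 0.23.

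In the methyl donor cycle, which makes and recycles S-adenosylmethionine, 2 of 13 tested genes passed without LIF (10% of all tested genes). Ahcyl2, a relative of the S-adenosylhomocysteine hydrolase, rose from 11.05 and 11.05 to 20.02 FPKM (0.80, limma adjusted p = 0.0347). Adk, the adenosine kinase that clears the product of that hydrolase, fell from 87.1 and 86.4 to 62.5 FPKM (-0.47, adjusted p = 0.0411). Both stood at similar levels in the library labelled embryoid body, 19.5 and 59.7 FPKM, where neither passed (both adjusted p = 0.139). The list medians were -0.11 and -0.06.

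Of 12 TET partners and genes of cofactor supply 0 passed, with 7 and 4 at unadjusted p under 0.05 (37.2% and 27.7% of all tested genes) and medians of -0.23 and -0.07 (0.041 and -0.0064). Over the 4 libraries the most abundant were Dcaf1, a ubiquitin ligase subunit, at 64.8 and 93.7 FPKM in ES cells and 63.2 and 65.7 in the derived libraries, and Ogdh, an enzyme that consumes 2-oxoglutarate, at 62.8 and 65.3, then 62.2 and 57.9. Idh3a, a subunit of an enzyme that makes 2-oxoglutarate, named after its values were seen, had a similar ES level (63.2 and 65.2 FPKM) and was at 47.6 and 49.8 in the derived libraries. Of 11 tested regulators of the balance in ES cells 0 passed, with 3 and 6 at unadjusted p under 0.05 (37.2% and 27.7% of all tested genes) and medians of -0.09 and 0.03. Nanog was at 113 and 108 FPKM, then 103 and 156, and Atrx, a chromatin remodeller, at 198 and 201, then 208 and 204.

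Germline genes known to be silenced by promoter methylation were followed too. Of 20 listed, 8 were under 1 FPKM in every library, and of the 12 tested 1 fell without LIF (1.15% of all tested genes): Tdrd1, a tudor-domain gene of the piRNA pathway, from 1.51 and 1.52 to 0.663 FPKM (-0.60, limma adjusted p = 0.0325). It was at 0.706 FPKM in the library labelled embryoid body (adjusted p = 0.139), where the list's median was -0.34 against -0.0064 over all tested genes, with 0 passing and 6 at unadjusted p under 0.05 (27.7%). Without LIF the median was 0.04, and the list went both ways. By size 2 were at least 1.5-fold above both ES libraries and 1, Tdrd1, below, against 24.3% of all tested genes in either direction. The higher ones were Sycp1 (1.40 and 1.24 to 3.57 FPKM, limma adjusted p = 0.0644) and Stk31 (1.59 and 1.66 to 2.53, adjusted p = 0.0792). In the library labelled embryoid body 0 germline genes were that far above and 4, Tdrd1 among them, that far below, all at low FPKM. Over all tested genes 16.3% were that far in either direction there (9.26% higher). Beside these lists, feeder markers had medians of 0.71 and 0.34, and 2 of 11 tested rose without LIF (8.87% of all tested genes), Postn from 2.39 and 2.79 to 22.7 FPKM and Dcn from 0.695 and 0.664 to 6.68. By size 9 were at least 1.5-fold above both ES libraries without LIF and 5 in the library labelled embryoid body (17.8% and 9.26% of all tested genes). The markers did not move together: in that later library Postn was at 2.66 and Dcn at 11.1 FPKM. Col1a1 was at 6.71 and 7.29, then 12.1 and 4.47 FPKM. The 4 formative or primed epiblast markers had medians of 0.83 and 0.34. Of them 1 rose without LIF (8.87% of all tested genes): Otx2, from 9.22 and 9.01 to 25.7 FPKM. In the library labelled embryoid body Otx2 (24.5 FPKM) and Fgf5 (1.59) were higher than in ES cells, Pou3f1 level (4.79) and Sox3 lower (1.58). Of 3 tested mesoderm markers 1 rose without LIF (8.87% of all tested genes): Eomes, from 1.31 and 1.32 to 3.72 FPKM, with 1.26 in the later library. Kdr was higher in both derived libraries (1.65 and 1.43, then 3.04 and 1.95 FPKM) and T lower (1.00 and 1.14, then 0.558 and 0.127). Among the ES markers the most abundant were Dppa5a, at 561 and 577 FPKM in ES cells, then 805 and 1136, and Pou5f1, the core pluripotency factor, at 489 and 472, then 455 and 461. The primitive endoderm markers Dab2 (5.999 and 5.929, then 6.54 and 4.81 FPKM) and Pdgfra (0.490 and 0.643, then 1.51 and 1.25), which fibroblasts also express, did not pass. Nor did the neuroectoderm markers Nes (7.11 and 6.92, then 6.49 and 2.11 FPKM) and Pax6 (2.44 and 2.21, then 0.792 and 1.52).

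**Figure D5:**
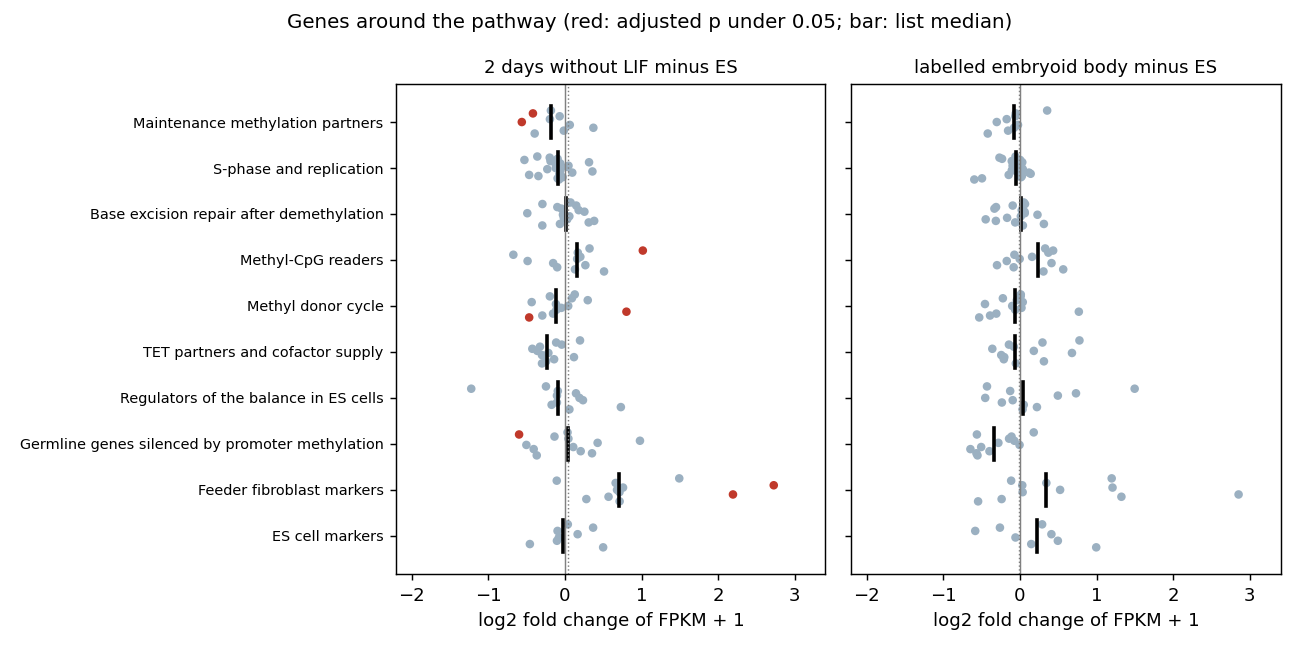
Log2 fold change of FPKM + 1 against ES cells (x axes) for genes of the lists named at the left, after 2 days without LIF (left) and in the library labelled embryoid body (right). Points are genes, red where limma's adjusted p was under 0.05, black bars are list medians, and the dotted line is the median of all tested genes; red points appear only on the left, 8 in all.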

How the data were processed

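RNA sequencing libraries from 4 samples were analysed from a single table of FPKM deposited by the authors. Per the submitters' processing notes Trimmomatic 0.36, STAR, Cufflinks and mm10 were used. The sources used here do not give what each did, the gene annotation or whether strand was counted. Of 47633 identifiers 47219 matched GENCODE mouse release 21 without their version, and 414 did not. Promoter sequences are RefSeq's on GRCm38.p6.

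FPKM was not rescaled. Every gene reaching 1 FPKM in any library entered limma 3.58.1 in R 4.3.3 on log2(FPKM + 1), which understates changes of low genes, with a trend on mean expression and all 4 libraries in 1 model. The steps were run on simulated data drawn from the spread that limma fitted to the ES pair. The planted changes were larger than those of any member, so the recovery of changes of the members' size was not tested. Alternatives changed the pseudocount, filter, scaling, gene set, trend, fold threshold and ES library. Depth came from the most common low FPKM times length over genes with 1 transcript and 3000 nt or more of exon. The members and gene lists were chosen with earlier results of these data known. All 9 members were described. Of each list up to 4 genes that passed are named, largest change first, or the 2 most abundant where none passed. Named outside this rule are Hells, Cdca7, Idh3a, Sycp1, Stk31, Col1a1, Fgf5, Pou3f1, Sox3, Kdr and T, and genes under other observations. Python 3.11.15 with numpy 2.4.6 and pandas 2.3.3 was used.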

Additional observations from a re-analysis of the deposited data

Results flagged for a closer look

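Of 9 members 3 had the derived libraries on opposite sides of the ES pair, and that difference was not tested. Dnmt3l was at 63.3 FPKM after 2 days without LIF and 35.3 in the library labelled embryoid body, against 49.3 and 51.1 in ES cells. Dnmt3a was at 16.9 and 11.2 FPKM, against 14.7 and 14.1. Uhrf1 was at 109 and 97.3 FPKM, against 104 and 107, and its difference without LIF changed sign under another scaling. Opposite sides were shown by 27.4% of all tested genes, so 3 of 9 is near the background and is not a result about the members.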

How the results depend on the processing

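Of 148 log2 changes of single members recomputed with a test, 141 kept their direction and side of the threshold. Changing only the filter, the gene set or the trend leaves a log2 change as it is. In those alternatives only the side of the threshold could move, so the count says little about direction. Of 36 without an ES library, which allow no test, 35 kept their direction. A value outside the ES range keeps its direction whichever ES library is left out. That held for 8 of 9 members without LIF and all 9 in the library labelled embryoid body. Only Dnmt1 without LIF could therefore change. Sign changes were all of sizes near 0 without LIF: Dnmt1 became 0.011 after rescaling to an equal sum without the highest genes and ranged from -0.054 to 0.037 when either ES library was left out, Tet3 became 0.011 under the same rescaling, and Uhrf1 became -0.0042 after median-of-ratios rescaling. The call of Tet2 without LIF was lost at a filter of 5 FPKM (limma adjusted p = 0.0619) and with no trend (0.0512). Tdg without LIF passed among protein-coding genes (0.0454), and Tet2 in the library labelled embryoid body passed with no filter (0.0419). Members called without LIF thus numbered 0 at 5 FPKM, 0 with no trend, 0 at a 2-fold minimum, 0 of the 3 in the strand-clear set (genes of at least 1000 nt outside opposite-strand gene bodies) and 2 among protein-coding genes, and in the library labelled embryoid body 1 with no filter. Genes called without LIF numbered 1572, against 4450 with no filter and 442 at 5 FPKM. In the library labelled embryoid body they numbered 62, against 159 with a pseudocount of 0.1, 1334 with no filter, 157 after rescaling to an equal sum, 973 in the strand-clear set and 0 with no trend (4504 at unadjusted p under 0.05). By size without LIF, Tdg was counted after median-of-ratios rescaling (1 member), and leaving out each ES library gave 0 to 1; in the library labelled embryoid body it gave 1 and 1. Between the derived libraries 1 member, Dnmt3l, was 1.5-fold apart after median-of-ratios rescaling. With 1 ES library left out, the ES ratio is the value of the other, so this restates the pair. The values were 0.142 and 0.156 (Dnmt3a to Dnmt3b), 0.449 and 0.454 (Dnmt3l to their sum) and 69.6 and 68.0 (Tet1 percent). No paired analysis was possible because the derived groups have 1 library each. Dnmt3c lay under the level of 3 fragments per kilobase, where a fall could not be detected.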

Other observations

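Some regulators outside the naming rule were picked after their values were seen. Prdm14, known as a repressor of the de novo genes in ES cells, was at 4.81 and 5.02 FPKM in ES cells, 5.54 without LIF and 8.82 in the library labelled embryoid body (limma adjusted p = 0.139). Tfap2c, a transcription factor of germ cells and trophoblast, was at 3.73 and 2.88, then 0.836 and 11.1 FPKM (adjusted p = 0.109 and 0.146). Idh1, which makes the 2-oxoglutarate that TET enzymes need, was at 23.5 and 23.3, then 20.01 and 38.1 FPKM (adjusted p = 0.0845 and 0.139). The vitamin C transporter gene Slc23a2, whose cargo supports TET activity, was at 11.3 and 11.6, then 13.3 and 20.4 FPKM (adjusted p = 0.131 and 0.139). These picks were at least 1.5-fold above both ES libraries in the library labelled embryoid body. So were 2 of 11 tested regulators and 2 of 12 TET partners in all, with 0 that far below (9.26% of all tested genes higher). Other members of these lists, among them Kdm2b, Wdr77, Cxxc5 and D2hgdh, were below both ES libraries there. Zscan4c and Zscan4d, genes of the 2-cell-like state, were listed at 0 in all 4 libraries.

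Of the 9 members, Tet1, Dnmt3l and Tdg lie on chromosome 10. Tet1 varied 1.16-fold over the libraries, Dnmt3l 1.79-fold and Tdg 1.64-fold.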
